A study of Drosophila melanogaster with 2 samples.

Results

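The 4 piRNA clusters 20A, flamenco, 38C and 80EF were followed here in H3K9me2 ChIP-seq of *Drosophila* larvae of the third instar. They were chosen by fixed genome positions and not by a measured value, and 38C is made of a distal and a proximal piece, so that there were 5 intervals. The intervals covered 1167 bins of 300 bp, of which 710 held at least 1 tag in at least 1 library and entered the comparisons, out of 384938 such bins on the chromosome arms and chromosome 4. Each interval was compared with its 100-kb flanks and between the genotypes.

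There were 2 libraries from whole larvae. The mutant was EHMTDD1 (EHMT-KO in the labels), an imperfect excision of the P-element KG01242 that lacks DNA downstream of the insertion site with the translational start of EHMT. The control was EHMT+ (wild type in the labels), a precise excision of the same element in the same genetic background. The sources used here do not say how many larvae were pooled. As each genotype had a single library, its spread over replicates is unknown, and no p-value was computed. Intervals given in parentheses are 95% intervals that cover counting error only. Each library held 7043913 tags, after the authors equalized the depths, with 6339821 tags on the arms and chromosome 4 in EHMTDD1 and 6396504 in EHMT+. A euchromatic bin had a median of 29 tags in both, with an SD over bins of 23.1 tags in EHMTDD1 and 17.3 tags in EHMT+, so the tags of the mutant were spread more unevenly over the genome. Whether tags were missing over the deleted part of EHMT was not looked at, for want of the gene's coordinates in the build of the files.

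piRNA clusters are stretches of broken and nested transposon copies that are transcribed into the precursors of piRNAs, the small RNAs that guide PIWI proteins to transposon transcripts in the gonad. Flamenco, which is read from its telomeric end toward the centromere in the somatic follicle cells of the ovary, is known for the control of gypsy and related retroelements. 20A is likewise transcribed from 1 strand, whereas 38C and 80EF give piRNAs of both strands in the germ line. Dimethylation of lysine 9 of histone H3 is a mark of silent chromatin, which EHMT, the fly G9a, and other enzymes such as Su(var)3-9 can place. Most cells of a larva lie outside the gonad. Less of the mark per cell and fewer cells with the mark cannot be told apart.

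The positions are those of BDGP Release 5. 20A lies on X from 21392175 to 21431907 (39.7 kb) and flamenco on X from 21505666 to 21684449 (179 kb), with 73.8 kb between them, which serve as the proximal flank of 20A and the distal flank of flamenco. On 2L the distal piece of 38C lies from 20104255 to 20116383 (12.1 kb) and the proximal piece from 20148259 to 20227581 (79.3 kb), 31.9 kb apart. 80EF lies on 3L from 23273964 to 23314199 (40.2 kb). The last tag of the arm was 0.991 Mb away for 20A, 0.738 Mb for flamenco, 1.22 Mb for 80EF and 2.89 Mb and 2.78 Mb for the pieces of 38C. In the Release 6 gene table, used for names only, the flamenco RNA (lncRNA:flam) has DIP1 as its nearest protein-coding gene on the telomeric side and CG40813 on the centromeric side. No annotation of Release 5 was used, so exons, introns and transposon copies inside the intervals are not given.

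The clusters differed widely in how much of their sequence could be seen. The distal piece of 38C had tags in 41 of 41 bins and 80EF in 127 of 134 (94.8%), close to the 96.3% of euchromatic bins. 20A had tags in 86 of 133 bins (64.7%), flamenco in 319 of 595 (53.6%) and the proximal piece of 38C in 137 of 264 (51.9%). In flamenco 11 stretches of at least 3 kb held no tag in either library, 82.8 kb of the interval in all stretches together, and the longest spanned 12.0 kb. The proximal piece of 38C had 10 stretches without a tag, 38.1 kb in all, the longest of 20.7 kb. 20A had 3, 14.1 kb in all, the longest of 7.8 kb, and 80EF had 2, 2.1 kb in all, the longest of 1.5 kb. Beyond flamenco toward the centromere only 19 of 334 flank bins (5.69%) held a tag, so its flank is in effect the 73.8 kb on the telomeric side. Tags had to map to 1 place and no input library was used, so in bins without tags an unmarked and an unmappable sequence cannot be told apart. Densities are therefore given per kb of bins with a tag.

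**Figure D1:**
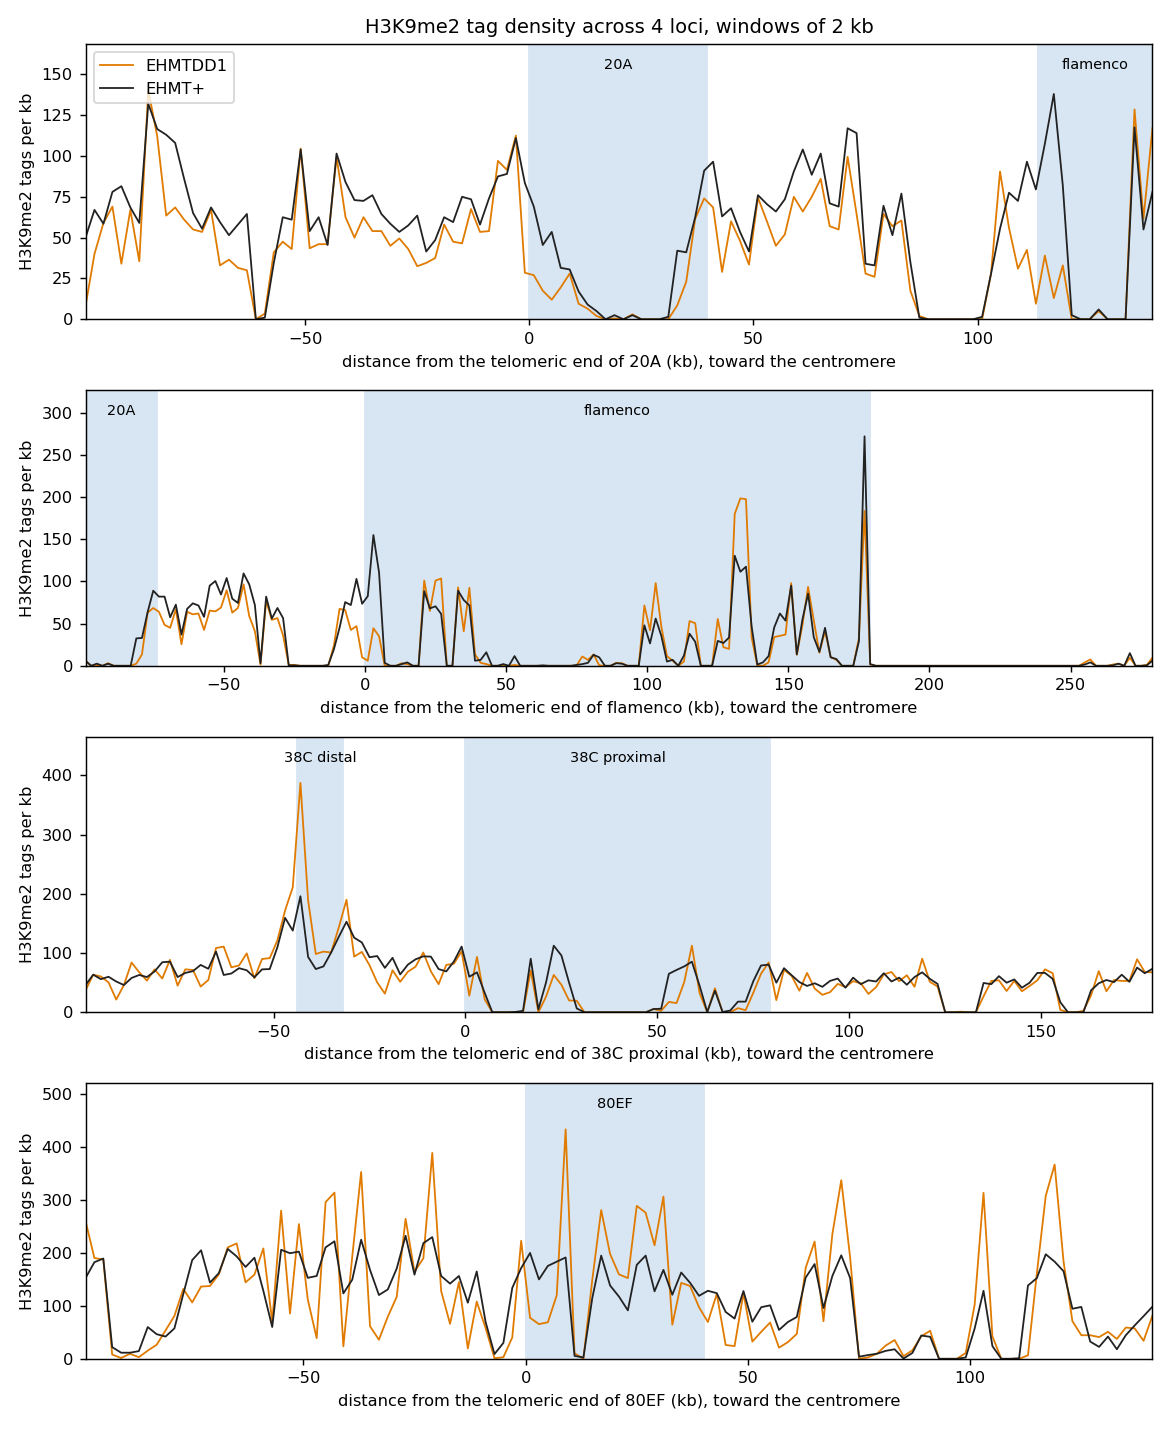
H3K9me2 tags per kb in windows of 2 kb (vertical axis) against the distance in kb from the telomeric end of the named interval (horizontal axis), for EHMTDD1 (orange) and EHMT+ (black), with the clusters shaded. Both libraries fall to 0 over the same stretches of 20A, flamenco and 38C proximal. The mutant line lies below the control at the telomeric ends of 20A and flamenco and at both ends of 80EF, and it lies above the control in the distal piece of 38C and the middle of 80EF.

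The density of H3K9me2 tags was not uniformly high over the clusters, in either genotype. Without an input library, mapping and copy number are not separated from the mark in bins with a tag either. In EHMTDD1 the tag density was 171 tags per kb in 38C distal, 170 in 80EF, 53.2 in flamenco, 40.8 in 38C proximal and 22.1 in 20A. In EHMT+ the order was 80EF with 146 tags per kb, 113 in 38C distal, 58.3 in 38C proximal, 53.4 in flamenco and 38.2 in 20A. In both libraries 38C distal and 80EF thus stood above the other intervals and 20A had the lowest density, while flamenco and 38C proximal changed places. Against its arm without the centromeric 1 Mb, 38C distal was 3.42 times as dense in EHMTDD1 and 2.21 times in EHMT+, and 80EF 3.20 times in EHMTDD1 and 2.75 times in EHMT+. For 20A the same ratio was 0.404 in EHMTDD1 and 0.677 in EHMT+, so this cluster had fewer tags per visible kb than the arm of X in either library. Flamenco was close to its arm, at 0.970 in EHMTDD1 and 0.945 in EHMT+. For 38C proximal the ratio was 0.814 in EHMTDD1 and 1.14 in EHMT+, on different sides of its arm.

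Compared with their own flanks, only 80EF and 38C distal were denser than the flanks in both libraries. For 38C distal the density in the interval over that in the flanks was 2.50 (2.38 to 2.63) in EHMTDD1 and 1.55 (1.46 to 1.64) in EHMT+. For 80EF it was 1.43 (1.39 to 1.47) in EHMTDD1 and 1.22 (1.18 to 1.25) in EHMT+. The lead of 80EF over its surroundings in EHMT+ came mainly from the centromeric side, since against its distal flank alone the ratio was 1.29 in EHMTDD1 and 1.04 in EHMT+, and against its proximal flank 1.66 in EHMTDD1 and 1.56 in EHMT+.

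20A and 38C proximal were less dense than their flanks in both libraries. The ratio of 20A was 0.401 (0.367 to 0.436) in EHMTDD1 and 0.540 (0.505 to 0.577) in EHMT+. For 38C proximal it was 0.628 (0.596 to 0.661) in EHMTDD1 and 0.861 (0.824 to 0.900) in EHMT+. Its distal flank holds the tag-rich sequence next to 38C distal. Against the proximal flank alone the ratio was 0.817 in EHMTDD1 and 1.09 in EHMT+, so the order of cluster and flank in the control depended on the side. It also depended on the bins used. With only bins whose neighbours hold a tag, the ratio of 38C proximal to both flanks in EHMT+ was 0.978, with an interval that held 1 (0.935 to 1.02).

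By tags per kb, flamenco was less dense than its flanks in EHMT+ and about as dense as they were in EHMTDD1. Its median bin was below that of the flanks in both libraries. In EHMTDD1 the median bin held 15 tags in flamenco and 27 in the flanks, and in EHMT+ 20 and 42. The ratio of the densities was 1.06 (1.01 to 1.11) in EHMTDD1 and 0.814 (0.781 to 0.848) in EHMT+. In EHMTDD1 the interval held 1 with 50-kb flanks (1.01, 0.960 to 1.07) and with 200-kb flanks (1.03, 0.994 to 1.06). Against the distal flank alone, where nearly all flank tags lie, the ratio was 0.985 (0.942 to 1.03) in EHMTDD1 and 0.751 (0.720 to 0.782) in EHMT+. The density inside flamenco was nearly equal in the libraries, and the difference lay in the flanks, with 50.1 tags per kb in EHMTDD1 and 65.6 in EHMT+. With bins without tags counted in, the ratio was above 1 in both libraries, 1.55 in EHMTDD1 and 1.19 in EHMT+, because the proximal flank is then counted at its full length.

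**Figure D2:**
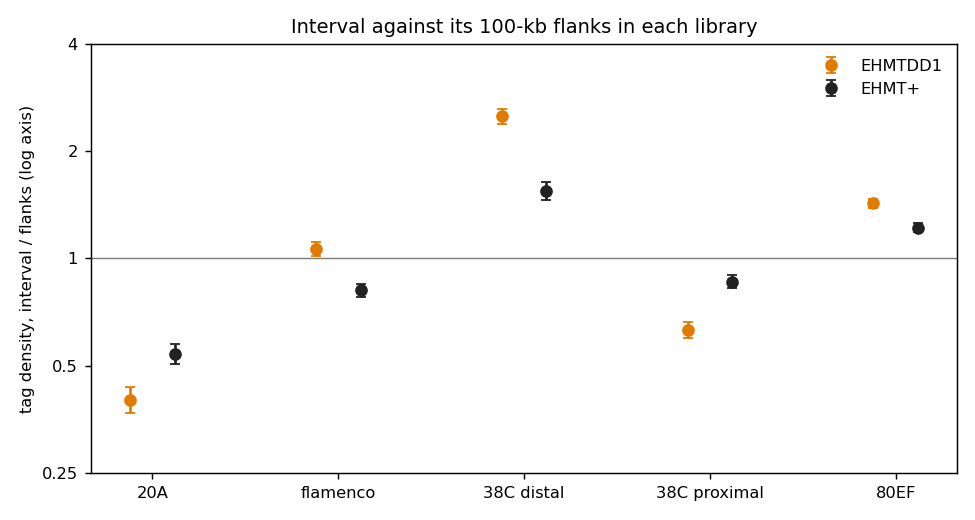
Tag density of each interval divided by that of its 100-kb flanks (vertical axis, log scale, 1 marked by the line), per kb of bins with a tag, for EHMTDD1 (orange, left of each pair) and EHMT+ (black), with 95% counting intervals. 38C distal (2.50 in EHMTDD1, 1.55 in EHMT+) and 80EF (1.43 in EHMTDD1, 1.22 in EHMT+) lie above 1 in both libraries, 20A (0.401 in EHMTDD1, 0.540 in EHMT+) and 38C proximal below 1 in both, and flamenco at 1.06 in EHMTDD1 and 0.814 in EHMT+.

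Between the genotypes the clusters did not move as a group. 20A and 38C proximal had fewer tags in EHMTDD1, 38C distal and 80EF had more, and flamenco as a whole had the same number within counting error. In all 5 intervals together there were 15915 tags in EHMTDD1 and 15452 in EHMT+, a sum that hides these opposite differences.

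20A had 567 tags in EHMTDD1, against 980 in EHMT+, a ratio of 0.579 (0.521 to 0.642). The median bin had 8 tags in EHMTDD1 and 22 tags in EHMT+, and 65 of its 86 bins were lower and 16 higher in the mutant. Its flanks were also lower in EHMTDD1, with 55.2 tags per kb against 70.8 in EHMT+. Relative to the flanks, 20A was at 0.742 (0.667 to 0.826) of its control value. The centromeric 1 Mb of X without the intervals had a ratio of 0.770 and the arm of X outside it 0.970. 20A stood at 0.751 (0.677 to 0.834) of the first and 0.596 (0.538 to 0.661) of the second.

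Flamenco had 5094 tags in EHMTDD1, against 5117 in EHMT+, a ratio of 0.996 (0.957 to 1.03). Its 319 bins divided into 164 that were lower and 148 that were higher in the mutant. The SD of the bin log2 ratio was 1.41, so the equal totals came from unlike bins. The same SD over bins with a tag was 0.895 on the arm of X outside the centromeric 1 Mb and 1.11 in the centromeric 1 Mb of X without the intervals. Because the pericentric part of X as a whole was lower in the mutant, flamenco stood at 1.29 (1.24 to 1.35) of it and at 1.03 (0.987 to 1.07) of the arm. Without its first window of 5 kb the tag ratio of flamenco was 1.10 (1.06 to 1.15). Leaving out the window from 130 to 135 kb instead gave 0.921 (0.883 to 0.961).

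38C distal had 2074 tags in EHMTDD1, against 1369 in EHMT+, a ratio of 1.51 (1.41 to 1.62). The median bin had 86 tags in EHMTDD1 and 61 tags in EHMT+, and 33 of 41 bins were higher in the mutant. 38C proximal had 1680 tags in EHMTDD1, against 2402 in EHMT+, a ratio of 0.699 (0.657 to 0.745). Here the median bin had 16 tags in EHMTDD1 and 35 tags in EHMT+, and 106 of 137 bins were lower in the mutant. The pieces of 38C, which lie in the same region of 2L, thus differed in opposite directions, and the ratio of 38C distal was 2.17 (1.97 to 2.38) times that of 38C proximal. Their flanks differed little between the genotypes, with 68.3 tags per kb in EHMTDD1 and 73.0 in EHMT+ around the distal piece, and 64.9 in EHMTDD1 and 67.6 in EHMT+ around the proximal piece.

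80EF had 6500 tags in EHMTDD1, against 5584 in EHMT+, a ratio of 1.16 (1.12 to 1.21). The median bin had 99 tags in EHMTDD1 and 91 tags in EHMT+, with 70 of 127 bins higher and 56 lower in the mutant. Its flanks had almost the same density in the libraries, 119 tags per kb in EHMTDD1 and 120 in EHMT+. The centromeric 1 Mb of 3L, which does not include 80EF, had a ratio of 1.02. In pairs, the ratios of the 5 intervals differed beyond counting error in 10 of 10 comparisons. Counting error does not include the spread between larvae or between immunoprecipitations, which was not measured. Nor does it cover the differences between windows of an interval. Leaving out 1 window of 5 kb gave ratios up to 0.682 for 20A and down to 0.661 for 38C proximal. It gave ratios down to 1.16 for 38C distal and up to 1.30 for 80EF, so the ranges overlapped in both pairs.

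**Figure D3:**
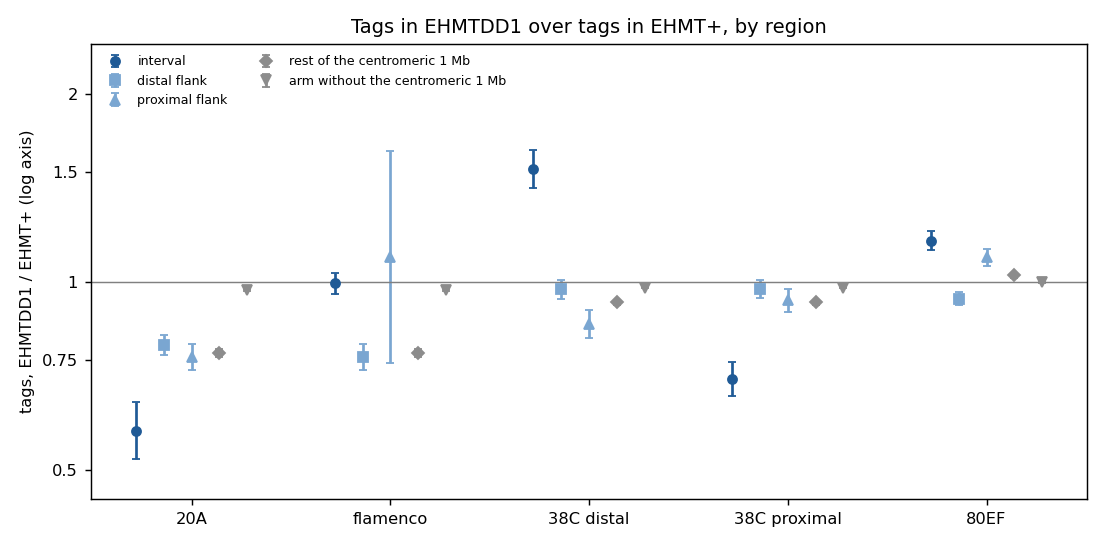
Tags in EHMTDD1 over tags in EHMT+ (vertical axis, log scale, 1 marked by the line) for each interval, its distal and proximal flank, the centromeric 1 Mb of its arm without the intervals (labelled the rest of it) and the arm outside it, with 95% counting intervals. 38C and 80EF lie outside the centromeric 1 Mb. 20A (0.579) and 38C proximal (0.699) lie below the other regions plotted with them, 38C distal (1.51) and 80EF (1.16) above them, and flamenco (0.996) lies near 1, above its distal flank and the rest of pericentric X; its proximal flank has few tags and a wide interval.

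The single bins were then compared with limits set by the euchromatic bins. A bin was counted as one of loss when its log2 ratio, after 1 was added to both counts, lay more than 2 SD below the mean of 384454 euchromatic bins, which is a limit of 3.80-fold lower, and as one of gain when it lay more than 2 SD above, 2.97-fold higher. Of the euchromatic bins with a tag 5.42% were bins of loss and 0.246% bins of gain. Of the 710 bins of the clusters 118 (16.6%) were bins of loss and 12 (1.69%) bins of gain. In the flanks, each bin counted once, 195 of 1835 (10.6%) were bins of loss and 11 (0.600%) bins of gain. The bins of 38C, 80EF and part of 20A belong to the euchromatic set itself, in which they are a small share.

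Bins of loss were a larger share of the bins in 20A, 38C proximal and flamenco than in the euchromatic background. They made up 22 of 86 bins in 20A (25.6%, Wilson interval 17.5 to 35.7), 29 of 137 in 38C proximal (21.2%, 15.2 to 28.7) and 53 of 319 in flamenco (16.6%, 12.9 to 21.1), with 7.14%, 5.38% and 7.04% in the flanks of 20A, 38C proximal and flamenco. Adjacent bins share tags and are not independent, so that these intervals are too narrow. 80EF had 13 of 127 (10.2%, 6.08 to 16.7), against 19.3% in its own flanks, so its share was below that of the flanks. Its interval no longer lay above the background with a tag in both libraries (8.06%, 4.44 to 14.2, background 4.92%), with at least 20 tags (8.20%, 4.51 to 14.4, background 4.57%) or by midpoint (8.0%, 4.40 to 14.1, background 5.88%). 38C distal had 1 of 41 (2.44%, 0.432 to 12.6), not distinguishable from the background at this number of bins. With tags counted by midpoint it had 7.32% (2.52 to 19.4) and with the bin grid shifted 7.5% (2.58 to 19.9), again with intervals that hold the background. The centromeric 1 Mb without the intervals had 13.4% bins of loss on X, 16.8% on 2L and 20.04% on 3L, and the arms outside it 5.79% on X, 5.53% on 2L and 5.26% on 3L. All bins of 38C and 80EF, and 58 of the 86 of 20A, lie outside this 1 Mb. Against its arm the interval of 38C proximal lay above the share of 2L. Against these pericentric shares 20A was above X and 80EF below 3L, while the intervals of flamenco and 38C proximal held the values of X and 2L. Over pericentric sequence in general, bins of loss were thus also above the background.

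Bins of gain were few, with 8 in flamenco, 2 in 38C proximal, 1 in 20A, 1 in 80EF and none in 38C distal. 38C distal had more tags in the mutant through many moderate differences, with a median bin log2 ratio of 0.43, and no bin passed the gain limit. The same median was 0.32 in 80EF, −0.08 in flamenco, −0.93 in 38C proximal and −0.94 in 20A, against flank medians of −0.29 for 80EF, −0.32 for flamenco, −0.07 for 38C proximal and −0.33 for 20A. For 38C distal the flank median was −0.16.

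Some bins had no tag at all in the mutant. In the clusters 69 of 710 bins (9.72%) held tags in EHMT+ only and 4 (0.563%) in EHMTDD1 only. Over euchromatic bins 0.706% were empty in EHMTDD1 only and 0.0926% in EHMT+ only. The centromeric 1 Mb without the intervals also had bins that were empty in EHMTDD1 only. These were 61 of 2148 bins with a tag on X, 111 of 2929 on 2L and 204 of 2769 on 3L. The flanks of 80EF had 25 of 589, so such bins were not particular to the clusters. Of the 69 bins, 34 lay in flamenco, 22 in 38C proximal, 10 in 20A and 3 in 80EF, and 42 of them were bins of loss, since a bin with 1 or 2 control tags does not reach the limit. When bins had to hold at least 1 tag in both libraries the share of loss was 11.7% in flamenco and 14.8% in 38C proximal, with 4.92% of euchromatic bins under the same condition.

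**Figure D4:**
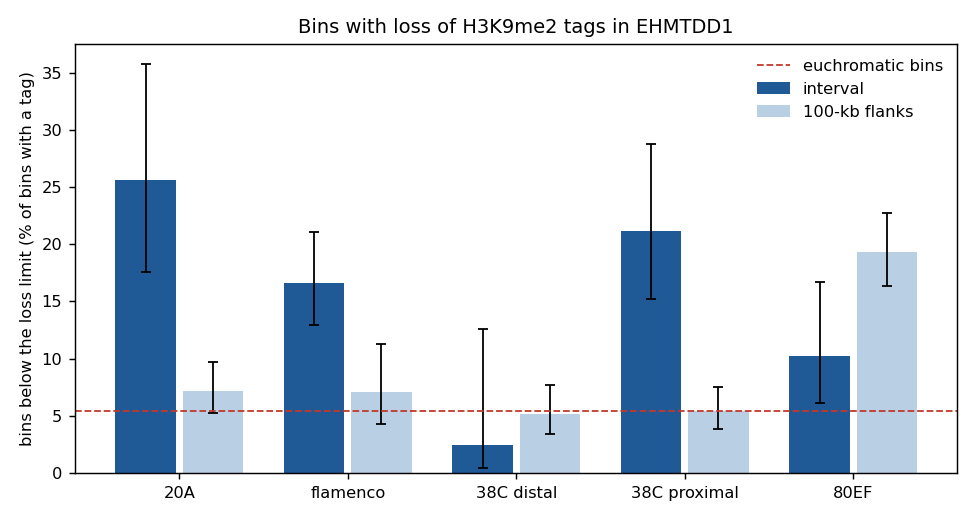
Share of bins with a tag that lay below the loss limit (vertical axis, percent) for each interval (dark bars) and its 100-kb flanks (light bars), with Wilson 95% intervals, and the 5.42% of euchromatic bins as a dashed line. The bars of 20A (25.6%), 38C proximal (21.2%) and flamenco (16.6%) are above their flanks, 80EF (10.2%) is below its flanks (19.3%), and 38C distal (2.44%) is below the line with an interval that holds it.

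Within the clusters the difference between the genotypes was patchy. In windows of 5 kb from the telomeric end of each interval, 49 of 72 windows held 50 tags or more over both libraries. The counting interval of the ratio lay below 1 in 20 of them, above 1 in 15, and held 1 in 14. In 20A 4 of 5 windows lay below 1 and none above, and in 38C proximal 6 of 10 below and none above. Flamenco had 8 windows below, 8 above and 7 that held 1. In 80EF 2 of 8 windows lay below 1 and 5 above, and in 38C distal 2 of 3 above and none below. The SD of the log2 ratio over the 49 windows was 0.85, against 0.35 over 22290 windows of the arms. The sets differed in tag density, since 7 of the 49 windows had a mean below 20 tags per kb, against 80 of the 22290. On the arms such sparse windows had a wider spread of ratios than denser ones. A wide spread was not particular to the clusters. Over single bins the SD of the log2 ratio ran from 0.833 in 38C distal to 1.41 in flamenco. It was 1.42 in the flanks of 80EF. In the centromeric 1 Mb without the intervals it was 1.11 on X, 1.275 on 2L and 1.42 on 3L.

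The telomeric end of flamenco, where its transcription is known to begin, had the lowest ratio among the windows of the cluster with at least 50 tags. The window from 40 to 45 kb was not distinguishable from it, with 11 tags in EHMTDD1, against 46 in EHMT+ (0.239, 0.112 to 0.469). A sparser window, from 50 to 55 kb, was lower, with 2 tags in EHMTDD1, against 23 in EHMT+. The first 5 kb of flamenco held 126 tags in EHMTDD1, against 609 in EHMT+, a ratio of 0.207 (0.169 to 0.251), and 13 of the 16 bins there were bins of loss. In density this was 25.2 tags per kb in EHMTDD1 and 121.8 in EHMT+, so that in the control this end was among the denser parts of the cluster. The longest run of bins of loss in flamenco, 7 bins from 21508201 to 21510300 on X, lay inside these first 5 kb and held 25 tags in EHMTDD1, against 279 in EHMT+.

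The lower density at this end did not begin at the boundary of the interval. The last 5 kb of the flank before flamenco, on the side of DIP1, held 133 tags in EHMTDD1, against 408 in EHMT+, a ratio of 0.326 (0.266 to 0.397), whereas the 5 kb before that held 333 in EHMTDD1 and 330 in EHMT+. In steps of 1 kb, the kb that ends 1 kb before the interval held 2 tags in EHMTDD1, against 64 in EHMT+. The first kb of flamenco held 7 in EHMTDD1, against 92 in EHMT+, and the next kb 5 in EHMTDD1, against 73 in EHMT+. From 5 to 10 kb there were 45 tags in EHMTDD1 and 94 in EHMT+, and from 10 to 20 kb all but 5 bins were without a tag. The region of low ratio thus spanned about 5 kb on each side of the boundary, up to the first long stretch without tags.

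Farther inside, flamenco had windows with more tags in the mutant. The window from 130 to 135 kb, the most tag-rich one of the cluster in EHMTDD1, held 929 tags in EHMTDD1, against 594 in EHMT+ (1.56, 1.41 to 1.74), and that from 100 to 105 kb 362 in EHMTDD1, against 222 in EHMT+ (1.63, 1.38 to 1.94). The highest ratio was that of the window from 75 to 80 kb, with 37 tags in EHMTDD1 and 13 in EHMT+ (2.85, 1.48 to 5.83), which contained a run of 3 bins of gain from 21582601 to 21583500 on X with 21 tags in EHMTDD1 and 2 in EHMT+. At the centromeric end the last window, from 175 kb on, held 435 tags in EHMTDD1, against 606 in EHMT+ (0.718, 0.633 to 0.813). High and low windows were thus partly grouped along the cluster. From 20 to 45 kb the ratio changed side between windows. Between 95 and 140 kb no window had a ratio below 1, while the windows from 140 to 150 kb were at 0.531 and 0.647.

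In 20A the low values were on both sides of a stretch in the middle without tags. Its first 5 kb held 97 tags in EHMTDD1, against 291 in EHMT+ (0.333, 0.262 to 0.421). The lowest window with at least 50 tags, from 30 to 35 kb, held 31 in EHMTDD1, against 122 in EHMT+ (0.254, 0.166 to 0.380). The longest run of bins of loss lay there, 6 bins from 21423901 to 21425700 on X with 5 tags in EHMTDD1, against 64 in EHMT+. The centromeric end differed least, with 285 tags in EHMTDD1 and 326 in EHMT+ (0.874, 0.743 to 1.03). Without this last window the ratio of the whole of 20A was 0.431, and without its first window 0.682.

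In 38C distal the higher value in the mutant rested largely on the first 5 kb, with 1205 tags in EHMTDD1, against 617 in EHMT+ (1.95, 1.77 to 2.15). The next 5 kb held 552 in EHMTDD1 and 465 in EHMT+ (1.19, 1.05 to 1.35), and the last 2.13 kb 317 in EHMTDD1 and 287 in EHMT+ (1.10, 0.939 to 1.30). Without the first window the ratio of the interval was 1.16 (1.05 to 1.28). The 5 kb of flank just before the interval were also higher in the mutant, with 888 tags in EHMTDD1 and 709 in EHMT+ (1.25, 1.13 to 1.38).

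In 38C proximal the windows at the outer ends had ratios near 0.89, with 287 tags in EHMTDD1 and 321 in EHMT+ in the first and 295 in EHMTDD1 and 332 in EHMT+ in the last. The lowest window with at least 50 tags followed the long stretch without tags. From 50 to 55 kb there were 42 tags in EHMTDD1, against 212 in EHMT+ (0.198, 0.139 to 0.277), and the longest run of bins of loss in any of the clusters began there, 8 bins from 20201401 to 20203800 on 2L with 14 tags in EHMTDD1, against 187 in EHMT+. The highest ratio, from 65 to 70 kb, was 1.04 (0.741 to 1.47), with 73 tags in EHMTDD1 and 70 in EHMT+. A single run of gain, 2 bins from 20175901 to 20176500 on 2L, held 26 tags in EHMTDD1 and 5 in EHMT+.

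80EF combined ends that were lower in the mutant with a middle that was higher. Its first 5 kb held 324 tags in EHMTDD1, against 853 in EHMT+ (0.380, 0.333 to 0.432). From 15 to 20 kb there were 1149 in EHMTDD1 and 791 in EHMT+, from 20 to 25 kb 916 in EHMTDD1 and 595 in EHMT+ (1.54, 1.39 to 1.71), and from 25 to 30 kb 1267 in EHMTDD1 and 823 in EHMT+. The longest run of bins of loss, 3 bins from 23280001 to 23280900 on 3L, held 18 tags in EHMTDD1, against 112 in EHMT+, and lay just after the first window. At the centromeric end, from 35 to 40 kb, there were 560 tags in EHMTDD1, against 684 in EHMT+ (0.819, 0.731 to 0.917). The first 5 kb of the proximal flank held 398 in EHMTDD1, against 608 in EHMT+ (0.655, 0.575 to 0.744). Without the first window the ratio of 80EF was 1.30. The ratio of the first window thus lay below 1 beyond counting error in 20A, flamenco and 80EF, but not in 38C proximal, where its interval held 1 (0.760 to 1.05), and was above 1 in 38C distal.

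**Figure D5:**
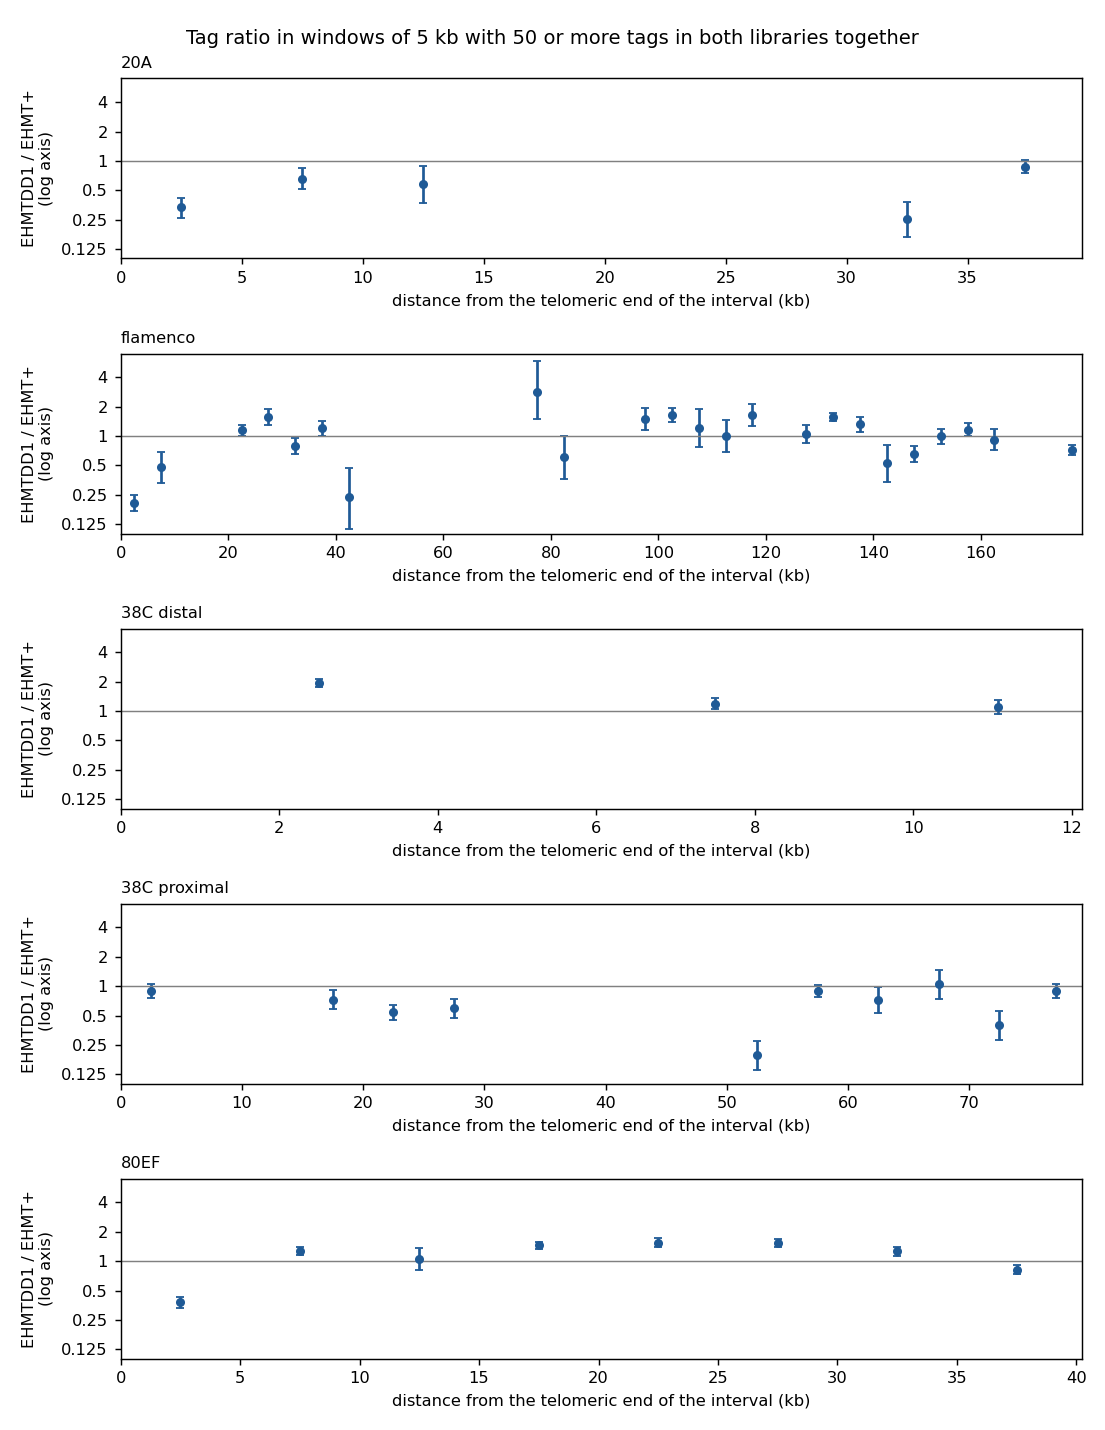
Ratio of tags in EHMTDD1 to tags in EHMT+ (vertical axis, log scale, 1 marked by the line) in windows of 5 kb with at least 50 tags, against the distance in kb of the window's middle from the telomeric end of the interval, with 95% counting intervals. Flamenco runs from 0.207 in its first window to 2.85, no window of 20A or 38C proximal has an interval above 1, and 80EF starts at 0.380, reaches 1.54 in the middle and ends at 0.819.

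On the arms the median ratio of the windows rose with their tag density. In the clusters it was lowest in the sparsest and highest in the densest windows, but did not rise between the middle classes. The density used is the mean over both libraries and so includes the EHMTDD1 tags of the ratio itself. Sorting and ratio are therefore not independent, and with the wider spread of EHMTDD1 a rise is partly built in. Of the windows with a mean of at least 120 tags per kb over both libraries, 10 lay in the clusters, with a median ratio of 1.36, and 358 on the arms, with a median of 1.14. Below 20 tags per kb the median was 0.584 in 7 windows of the clusters and 0.755 in 80 windows of the arms. Between 20 and 60 tags per kb it was 0.919 in 19 windows of the clusters and 0.996 in 16455 of the arms. Between 60 and 120 it was 0.892 in 13 windows of the clusters and 1.04 in 5397 of the arms. Dense windows were thus higher and sparse ones lower in EHMTDD1 outside the clusters too, in the same library whose tags were spread more unevenly, and the part of this in the differences of the clusters was not tested.

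Along each interval the bins kept much of their order between the genotypes. Over bins, Spearman's rho between the libraries was 0.73 in 20A, 0.77 in flamenco, 0.89 in 38C distal, 0.75 in 38C proximal and 0.54 in 80EF, as a description over neighbouring bins that share tags and the same mappable sequence. Both strands of the DNA were recovered alike, with between 48.8% and 53.1% of the tags on the plus strand in EHMTDD1 and between 50.1% and 51.0% in EHMT+.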

How the data were processed

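Chromatin of whole larvae of the third instar was precipitated with an antibody against H3K9me2 and sequenced as 36-bp reads. Reads were aligned by the authors to BDGP Release 5 (dm3 in the submitters' processing notes), allowing 1 mismatch. Uniquely placed tags were lengthened to 300 bp, and the larger library was cut down to the size of the smaller. The values deposited by the authors are the tag positions themselves, 7043913 per library, with no input library. Within each library no tag shared both its start and its strand with another. Unique mapping leaves repeats within the clusters without tags, and the extension lets a tag count in neighbouring bins.

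Positions were counted in 300-bp bins, in every bin overlapped by at least 1 bp, for bin ratios and limits, and once by midpoint for totals and densities. Euchromatic bins were those of chromosome 4 and of X, 2L, 2R, 3L and 3R outside the centromeric 1 Mb. Limits were the mean plus and minus 2 SD of the log2 ratio of EHMTDD1 to EHMT+ with a pseudocount of 1. Ratios have exact conditional binomial, shares Wilson, and ratios of ratios log-normal 95% intervals. Named regions were each interval with its flanks, its longest runs of bins beyond a limit, and its lowest and highest 5-kb window with at least 50 tags. Other windows and the 1-kb steps at flamenco were chosen after their values were seen. The intervals, comparisons and regions were chosen with earlier results of these data known. Alternatives covered the flanks, bins used, pseudocount, counting, bin size and grid, limits and scaling. The counting was tested on simulated data. Gene names came from RefSeq for Release 6. The work used pandas 2.3.3 and NumPy 2.4.6 under Python 3.11.15, SciPy 1.17.1 for the intervals, and Matplotlib 3.10.9.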

Additional observations from a re-analysis of the deposited data

How the results depend on the processing

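No paired analysis was possible because the comparison rests on a single library of either genotype. Of 25 alternatives for the tag ratio 16 stayed within the 95% interval, as did 26 of 35 for the share of bins of loss and 22 of 50 for the density over flanks, 1 of which reversed. Leaving out 1 window of 5 kb, an alternative chosen after seeing the data, gave tag ratios of 0.431 to 0.682 for 20A, 0.921 to 1.10 for flamenco, 1.16 to 1.68 for 38C distal, up to 0.748 for 38C proximal and 1.10 to 1.30 for 80EF, so flamenco alone changed side.

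With all bins, those without tags included, tagless stretches count as length and the density over flanks was 0.289 in EHMTDD1 and 0.390 in EHMT+ for 20A, 1.55 in EHMTDD1 and 1.19 in EHMT+ (below 1 without those bins) for flamenco, 0.355 in EHMTDD1 and 0.487 in EHMT+ for 38C proximal, and 1.53 in EHMTDD1 and 1.31 in EHMT+ for 80EF. For the other settings the cause was not tested. With 50-kb flanks it was 1.01 in EHMTDD1 and 0.770 in EHMT+ for flamenco, 2.10 in EHMTDD1 and 1.35 in EHMT+ for 38C distal, 0.584 in EHMTDD1 and 0.780 in EHMT+ for 38C proximal, and 1.15 in EHMT+ for 80EF. With 200-kb flanks it was 2.94 in EHMTDD1 and 1.83 in EHMT+ for 38C distal, 0.695 in EHMTDD1 and 0.941 in EHMT+ for 38C proximal, and 1.27 in EHMT+ for 80EF. With only bins whose neighbours hold a tag it was 1.16 in EHMTDD1 and 0.885 in EHMT+ for flamenco, and 0.716 in EHMTDD1 and 0.978 in EHMT+ for 38C proximal. With flank bins of the other intervals kept it was 1.14 in EHMTDD1 and 0.871 in EHMT+ for flamenco, 2.71 in EHMTDD1 for 38C distal and 0.567 in EHMTDD1 for 38C proximal.

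The share of bins of loss at 3 SD was 8.14% in 20A, 9.40% in flamenco, 9.49% in 38C proximal and 4.72% in 80EF, with 2.16% of euchromatic bins. With bins that hold a tag in both libraries it was 11.7% in flamenco and 14.8% in 38C proximal (4.92% of euchromatic bins), with at least 20 tags 12.3% in flamenco (4.57%), by midpoint 14.8% in 38C proximal (5.88%), and with 600-bp bins 0% in 38C distal (4.68%), which had 7.32% by midpoint and 7.5% with the grid shifted (5.43%).

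Single libraries, unique mapping and the absence of an input limit these values: the spread between animals was not measured, repeated sequence is not seen, and shares of fewer than 100 bins, as in 20A and 38C distal, have wide intervals.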
